A study of Mus musculus with 10 samples.

Results

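The erythroid program was followed in spleen myeloid-derived suppressor cells (MDSC) and in tumor-associated macrophages (TAM) of tumor-bearing mice through a list of 39 genes of red cell development. The genes were chosen by symbol from what is known of red cells, with earlier results of these data also known. Of them, 38 were found among the 55421 gene identifiers of the count table. Ahsp was not matched and was not analysed here. The 38 genes were divided into 11 early genes (Epor, Klf1, Gata1, Gfi1b, Tal1, Zfpm1, Tfrc, Car1, Car2, Icam4 and Ermap) and 18 late genes (Hba-a1, Hba-a2, Hbb-bs, Hbb-bt, Alas2, Fech, Slc25a37, Slc4a1, Sptb, Ank1, Epb42, Dmtn, Add2, Rhag, Kel, Hemgn, Trim10 and Tspo2). The 9 genes placed in neither list were Alad, Uros, Urod, Cpox, Ppox, Mfsd2b, Cldn13, Tspan33 and Rhd.

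RNA sequencing was carried out on day 15 after implantation of MC17-51 fibrosarcoma cells in C57BL/6 mice. In all mice the gene for the phosphatase SHP-2, Ptpn11, was floxed (Shp2f/f), and the deleted group also carried Cre recombinase at the lysozyme M locus (Shp2f/fLysMcre), which is active in myeloid cells such as granulocytes and macrophages. MDSC were GR-1+ cells taken from the spleen with magnetic beads, described in the study as Ly6G+ Ly6C- polymorphonuclear MDSC, and TAM were live CD45+CD11b+F4/80+Ly6G- cells sorted from the tumor. There were 2 libraries of MDSC and 3 of TAM for each genotype, and the labels do not say whether the libraries of a group came from separate mice or from pools. The study took TAM from the same mice as the MDSC, but the labels do not say which libraries share a mouse. Cell type, tissue and way of isolation cannot be told apart in this design. Because these are bulk samples, fewer cells of a type and less RNA per cell cannot be told apart either.

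Red cells arise from progenitors that respond to erythropoietin through the receptor encoded by Epor. GATA1 and its cofactor FOG1 (Zfpm1), TAL1, GFI1B and KLF1 are transcription factors that switch on the erythroid genes. Early precursors take up iron through the transferrin receptor (Tfrc), and maturing cells make heme, globin chains and the proteins that tie the membrane to its spectrin skeleton before they lose their nucleus. In mice the spleen is itself a site of red cell formation and can expand it under stress, including the presence of a tumor. Several of the listed genes are also used outside red cells, among them the enzymes of heme synthesis, which most cells need, and Tfrc and Car2, which many cells that divide or take up iron express.

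Total counts lay between 28844660 and 38222998 per library. As a check of the labels, Ptpn11 in TAM was 121, 126 and 121 CPM (counts scaled to library size) in Shp2f/f and 51.4, 55.0 and 53.5 CPM in Shp2f/fLysMcre, a log2 fold change of -1.24 ± 0.04 (SE; adjusted p = 2.96e-09). In MDSC it was 113 and 99.4 CPM in Shp2f/f and 94.7 and 77.5 CPM in Shp2f/fLysMcre, a log2 fold change of -0.29 ± 0.14 that did not pass (adjusted p = 0.361). Neutrophil marker genes summed to 9952 to 10296 CPM in MDSC and 4365 to 4592 CPM in TAM of Shp2f/f mice. Of the 11 neutrophil markers, 10 were lower in TAM and 1 was higher (log2 difference 4.81), with a median of -5.44. Their sum in TAM therefore does not stand for most of these genes. Macrophage marker genes summed to 2544 to 2634 CPM in MDSC and 9601 to 9888 CPM in TAM. Xist, the transcript of the inactive X chromosome, had 1 count in each MDSC Shp2f/f library and 4759 to 4875 in the MDSC Shp2f/fLysMcre libraries, and 4.84 to 18.5 CPM against 192 to 350 CPM in TAM, so composition by sex and genotype cannot be told apart. Levels are given in CPM after TMM scaling, which equalises libraries by a trimmed mean of their gene-wise ratios, and adjusted p-values are those of edgeR's quasi-likelihood test with Benjamini-Hochberg adjustment over all genes tested, with a call at an adjusted p under 0.05.

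Promoters were examined because the listed genes share regulators. Of the 38 genes, 30 had an entry in the RefSeq promoter table for GRCm38.p6, and Slc25a37, Car2, Slc4a1, Dmtn, Car1, Fech, Ank1 and Cldn13 had none. The 250 bases before each start site were searched on both strands for GATA words with A or T before them and A or G after them, for the CACCC type word CCNCNCCC recognised by KLF factors, and for the E-box CANNTG. A GATA word was found in 19 of the 30 genes (63.3%), against 29.7% of the 27025 genes in the table. It was found in 6 of 9 early genes (66.7%), in 10 of 13 late genes (76.9%) and in 3 of 8 genes of neither list (37.5%). The CACCC type word was found in 18 of 30 genes (60.0%) against 48.5% of all genes, with 7 of 9 early genes (77.8%) and 7 of 13 late genes (53.8%). The E-box, which is short and common, was found in 73.3% of the 30 genes and 69.3% of all genes. These matches describe the windows and do not show binding.

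Windows are shown here to compare an early receptor and an early transcription factor with 2 late surface protein genes and a globin. Each line holds the 150 bases before the start site in the direction of transcription, with GATA and CACCC type matches in capitals.
Epor (chr9:21963577-21963726, minus strand): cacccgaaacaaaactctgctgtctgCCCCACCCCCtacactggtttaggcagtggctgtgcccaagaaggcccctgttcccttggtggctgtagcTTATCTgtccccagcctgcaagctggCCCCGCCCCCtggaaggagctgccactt
Gfi1b (chr2:28621983-28622132, minus strand): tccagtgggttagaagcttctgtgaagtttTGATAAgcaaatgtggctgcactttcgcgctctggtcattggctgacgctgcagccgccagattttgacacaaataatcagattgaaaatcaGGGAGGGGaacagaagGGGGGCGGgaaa
Kel (chr6:41704326-41704475, minus strand): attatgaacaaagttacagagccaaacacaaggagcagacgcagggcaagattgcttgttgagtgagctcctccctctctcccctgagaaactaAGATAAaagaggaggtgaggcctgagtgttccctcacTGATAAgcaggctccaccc
Rhag (chr17:40810999-40811148, plus strand): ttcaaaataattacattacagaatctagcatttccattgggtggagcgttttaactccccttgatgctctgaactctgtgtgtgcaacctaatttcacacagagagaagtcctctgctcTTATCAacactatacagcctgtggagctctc
Hba-a2 (chr11:32296342-32296491, plus strand): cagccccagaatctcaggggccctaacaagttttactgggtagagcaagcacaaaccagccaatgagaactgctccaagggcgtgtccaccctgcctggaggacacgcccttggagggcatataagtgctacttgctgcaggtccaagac
Epor held 1 GATA match and 4 overlapping or separate CACCC type matches, and Gfi1b held 1 GATA match and 2 CACCC type matches. Kel held 2 GATA matches and Rhag held 1, with no CACCC type match in either. The window of Hba-a2 held neither word, and its only GATA match lay further upstream within the 250 bases. The same window of Hba-a1 was identical to that of Hba-a2 over 147 bases when shifted by 3 bases.

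In MDSC, the question was whether erythroid transcripts differed between the genotypes in a cell preparation selected as granulocytic. Nearly the whole program was higher in Shp2f/fLysMcre. Of the 38 genes, 29 were called higher and 1 lower, while 3.76% of the 14806 genes tested were called higher and 0.52% lower. The median log2 fold change of the 38 genes was 1.25, against -0.01 over all genes tested. The genotypes did not overlap for 36 of the 38 genes, and this held for 50.2% of all genes tested. The 8 genes without a call were Hba-a2, Hbb-bs, Urod, Ppox, Fech, Tspo2, Mfsd2b and Icam4, and all of them had a fitted value above 0.

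The receptor and the transcription factors rose together, with 6 of 6 genes called higher and a median log2 fold change of 1.11. Gata1, on the X chromosome (7959260 to 7978071, minus strand), was 13.8 and 16.0 CPM in Shp2f/f and 30.6 and 35.2 CPM in Shp2f/fLysMcre, a log2 fold change of 1.16 ± 0.14 (adjusted p = 0.0208). Klf1, the erythroid Krüppel-like factor that activates adult beta-globin, was 17.0 and 17.8 CPM in Shp2f/f and 38.7 and 46.1 CPM in Shp2f/fLysMcre, a log2 fold change of 1.30 ± 0.14 (adjusted p = 0.0183). In both genes, every Shp2f/fLysMcre library was above every Shp2f/f library, and the genotypes were further apart than the replicates. Epor was 8.26 and 9.57 CPM in Shp2f/f and 15.9 and 20.8 CPM in Shp2f/fLysMcre, a log2 fold change of 1.06 ± 0.18 (adjusted p = 0.0421). Gfi1b, which megakaryocytes also use, rose from 7.91 and 8.96 CPM to 19.3 and 21.4 CPM, a log2 fold change of 1.29 ± 0.14 (adjusted p = 0.0183). Tal1 and Zfpm1 had the smallest changes of the group, 0.92 ± 0.11 and 0.87 ± 0.11, at 22.6 to 24.8 CPM in Shp2f/f and 42.9 to 46.1 CPM in Shp2f/fLysMcre.

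The membrane and membrane skeleton genes had the largest median change, 1.44, and 6 of 6 were called higher. Slc4a1, which encodes the anion exchanger band 3 of the red cell membrane, was 57.6 and 49.4 CPM in Shp2f/f and 189 and 138 CPM in Shp2f/fLysMcre, a log2 fold change of 1.63 ± 0.19 (adjusted p = 0.0192). Sptb, the erythroid beta-spectrin, was 28.9 and 27.7 CPM in Shp2f/f and 80.6 and 72.6 CPM in Shp2f/fLysMcre, a log2 fold change of 1.45 ± 0.11 (adjusted p = 0.0170). The genotypes were well separated in both, and Slc4a1 had the wider spread between the Shp2f/fLysMcre libraries. Ank1, the ankyrin that links band 3 to spectrin, rose from 24.8 and 24.7 CPM to 71.2 and 61.0 CPM, a log2 fold change of 1.43 ± 0.12 (adjusted p = 0.0179). Dmtn (dematin), Add2 (beta-adducin) and Epb42 (protein 4.2) changed by 1.67 ± 0.13, 1.43 ± 0.12 and 1.35 ± 0.15.

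Blood group and other surface protein genes were called higher in 7 of 8 cases, with a median of 1.31. Rhd, which encodes the Rh blood group polypeptide, had the largest log2 fold change of the 38 genes, 1.69 ± 0.12 (adjusted p = 0.0170), and went from 13.6 and 14.3 CPM to 42.7 and 46.4 CPM. Its partner Rhag, the Kell protein gene Kel, Ermap, Cldn13, Tspan33 and Tfrc were also called higher, by 0.94 to 1.6. Tfrc was 89.4 and 78.2 CPM in Shp2f/f and 175 and 142 CPM in Shp2f/fLysMcre, a log2 fold change of 0.94 ± 0.15 (adjusted p = 0.0343). The adhesion molecule gene Icam4, which had the lowest counts of the group at 1.95 to 2.54 CPM in Shp2f/f and 4.06 to 4.85 CPM in Shp2f/fLysMcre, did not pass (1.0 ± 0.25, adjusted p = 0.102).

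Heme synthesis and mitochondrial iron import had a lower median. Of 8 genes, 5 were called higher, and the median was 0.69. Alas2, the erythroid form of the enzyme that starts heme synthesis, was 13.6 and 14 CPM in Shp2f/f and 26.1 and 27.0 CPM in Shp2f/fLysMcre, a log2 fold change of 0.96 ± 0.11 (adjusted p = 0.0201). The mitochondrial iron importer gene Slc25a37 (mitoferrin 1) was 84.4 and 79.2 CPM in Shp2f/f and 139.6 and 136 CPM in Shp2f/fLysMcre, a log2 fold change of 0.77 ± 0.11 (adjusted p = 0.0262). Replicates of both genes lay close together. Of the enzymes of the later steps, Alad, Cpox and Uros were called higher by 1.22 ± 0.18, 0.85 ± 0.14 and 0.61 ± 0.11. Urod (0.34), Ppox (0.46) and Fech (0.54) did not pass, with adjusted p-values of 0.208, 0.117 and 0.0839. Reads of Alas2, Cpox, Ppox, Sptb, Ank1, Slc25a37, Add2 and Icam4 may include reads of a gene on the other strand whose exons overlap theirs, since the strand setting of the counting is not given in the sources used here.

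The globins, the end product of the program, were less uniform than the membrane genes. Hbb-bt, an adult beta-globin gene on chromosome 7 (103812524 to 103813996, minus strand), was 25.5 and 28.2 CPM in Shp2f/f and 61.4 and 74.3 CPM in Shp2f/fLysMcre, a log2 fold change of 1.35 ± 0.14 (adjusted p = 0.0183). Hba-a1, an adult alpha-globin gene on chromosome 11 (32283511 to 32284465, plus strand), was 33.4 and 39 CPM in Shp2f/f and 70.4 and 109 CPM in Shp2f/fLysMcre, a log2 fold change of 1.33 ± 0.23 (adjusted p = 0.0428). Both genes were separated by genotype, with a wide gap between the Shp2f/fLysMcre libraries for Hba-a1. Hbb-bs was 93.6 and 107 CPM in Shp2f/f and 139 and 211 CPM in Shp2f/fLysMcre, a log2 fold change of 0.82 ± 0.22 that did not pass (adjusted p = 0.124). Hba-a2 was 9.60 and 12.6 CPM in Shp2f/f and 12.3 and 20.9 CPM in Shp2f/fLysMcre, with overlapping genotypes (0.60 ± 0.29, adjusted p = 0.348). All 4 globins were higher in Shp2f/fLysMcre replicate 2 than in replicate 1, whereas 4 of 6 membrane genes were higher in replicate 1. The split of reads within each globin pair is uncertain. Of the 42-base words of the Hba-a1 transcripts, the length of a read, 73.6% also occur in Hba-a2, and 90.7% of those of Hba-a2 occur in Hba-a1. The shares are 53.7% for Hbb-bs in Hbb-bt and 58.8% for Hbb-bt in Hbb-bs. How reads with several matches were counted is not given, so the globin totals are uncertain as well.

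**Figure D1:**
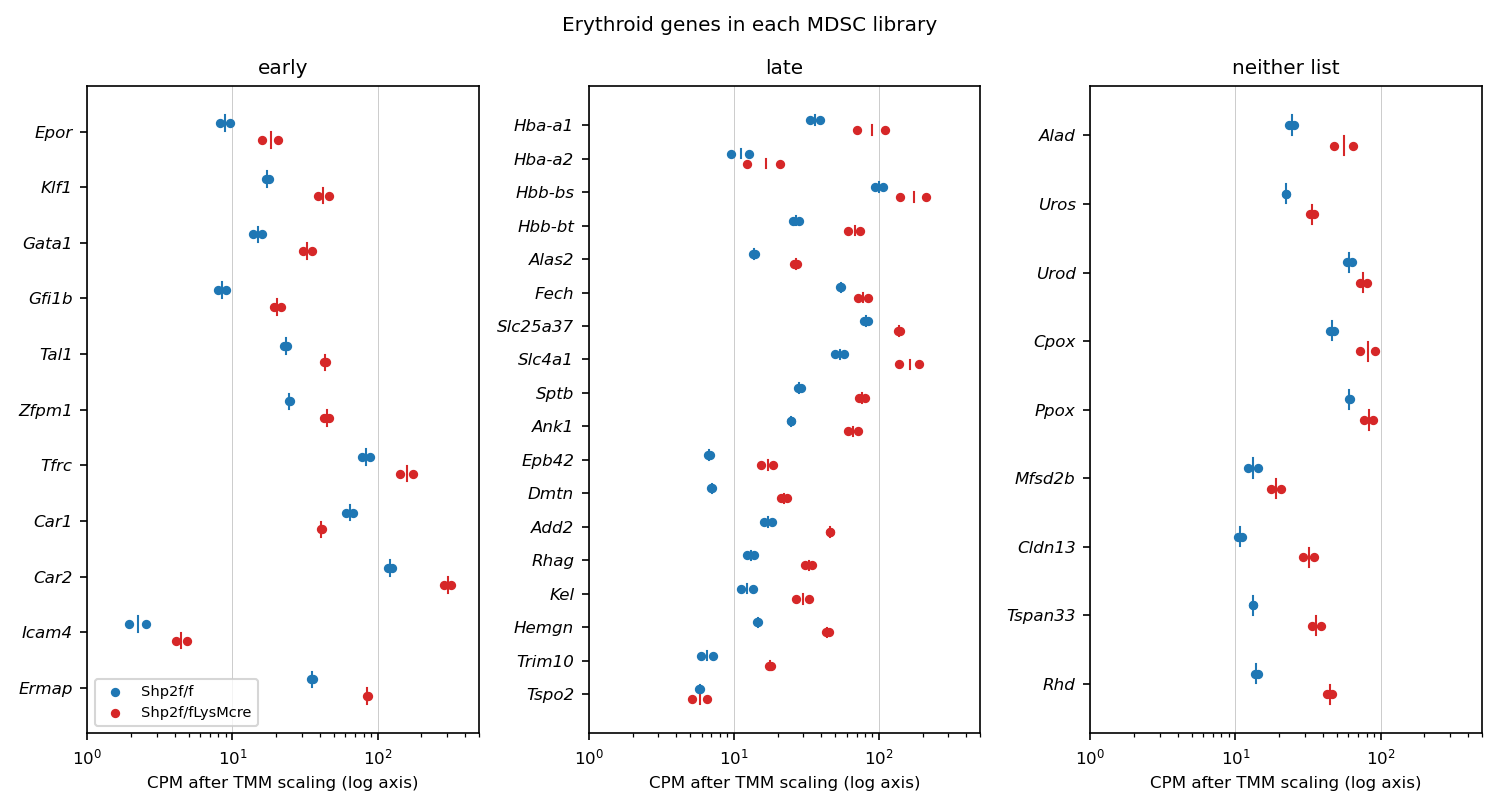
Each point is the level of a gene in an MDSC library, in CPM after TMM scaling on a log axis, with the short line at the mean of the 2 libraries of a genotype and the genes divided into early, late and neither list. The Shp2f/fLysMcre libraries lie to the right of the Shp2f/f libraries for most genes, Car1 lies to the left, and Hba-a2 and Tspo2 overlap.

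Car1 was the exception among the early genes. Car1 and Car2 encode carbonic anhydrases of the red cell and lie close together on chromosome 3, Car1 at 14766216 to 14808368 on the minus strand and Car2 at 14886273 to 14900770 on the plus strand. Car1 was 60.1 and 68.2 CPM in Shp2f/f and 40.5 and 41.2 CPM in Shp2f/fLysMcre, so that both Shp2f/fLysMcre libraries were lower (log2 fold change -0.63 ± 0.11, adjusted p = 0.0460). Car2 was 117 and 126 CPM in Shp2f/f and 288 and 321 CPM in Shp2f/fLysMcre, so that both were higher (1.34 ± 0.13, adjusted p = 0.0179). The ratio of Car2 to Car1 was 1.95 and 1.85 in Shp2f/f and 7.12 and 7.80 in Shp2f/fLysMcre. The call of Car1 was close to the threshold, and with scaling by total counts it was -0.59 (adjusted p = 0.0651). The remaining genes of mixed role differed in size. Hemgn, the nuclear protein hemogen, rose from 14.4 and 14.7 CPM to 45.2 and 43.1 CPM (1.61 ± 0.11, adjusted p = 0.0170), and Trim10, needed for terminal erythroid differentiation, changed by 1.45 ± 0.15. Mfsd2b, a sphingosine 1-phosphate exporter of red cells and platelets, was 14.3 and 12.2 CPM in Shp2f/f and 17.7 and 20.7 CPM in Shp2f/fLysMcre and did not pass (0.55, adjusted p = 0.127). Tspo2, which acts in late erythroblasts, was 5.76 and 5.84 CPM in Shp2f/f and 5.17 and 6.53 CPM in Shp2f/fLysMcre, with a log2 fold change of 0.03 ± 0.20 (adjusted p = 0.960).

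Early and late genes were then set side by side. In MDSC, 9 of 11 early genes were called higher and 1 lower, with a median log2 fold change of 1.06 and a range of -0.63 to 1.34. Of the 18 late genes, 14 were called higher and none lower, with a median of 1.35 and a range of 0.03 to 1.67. As sums of CPM of the total count, the early genes came to 413 and 422 in Shp2f/f and 810 and 903 in Shp2f/fLysMcre, and the late genes to 523 and 538 in Shp2f/f and 1121 and 1277 in Shp2f/fLysMcre. Both sums were higher in Shp2f/fLysMcre, and the genotypes did not overlap. The ratio of late to early was 1.27 in both Shp2f/f libraries and 1.38 and 1.41 in Shp2f/fLysMcre. Without the globins it was 0.860 and 0.819 in Shp2f/f and 1.02 and 0.897 in Shp2f/fLysMcre. A further form left out genes set aside as broadly used (Tfrc, Car2 and Icam4 among the early, and Fech, Slc25a37 and Dmtn among the late). The ratio was then 1.88 in both Shp2f/f libraries and 2.64 and 2.7 in Shp2f/fLysMcre. The label is loose for Icam4 and Dmtn, which were scarce in TAM, with group means of 0.0344 to 0.0364 CPM and 0.171 to 0.395 CPM. The ratio was higher in Shp2f/fLysMcre in each of these forms, by an amount that depended on which genes were summed. With 2 libraries a genotype it was not tested. The early sum held Car1, the early gene that was lower in Shp2f/fLysMcre, in every form. The ratio was not computed without Car1, so the part of Car1 in the higher ratio was not tested.

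**Figure D2:**
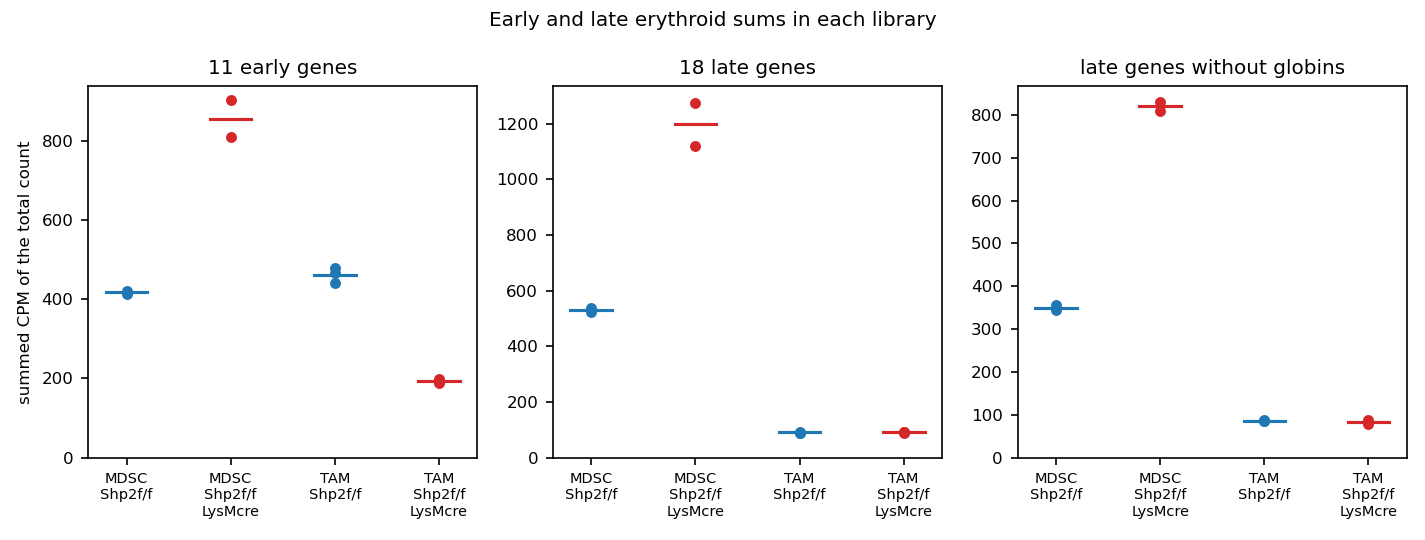
Sums of the 11 early genes, the 18 late genes and the late genes without globins in each library, in CPM of the total count, with the short line at the group mean. Both sums are higher in MDSC of Shp2f/fLysMcre, while in TAM the early sum falls from between 442 and 480 to between 189 and 200 and the late sum lies between 88.6 and 93.8 in all 6 libraries. In TAM, Tfrc and Car2 make up most of the early sum, and Fech and Slc25a37 most of the late sum.

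The number of calls in MDSC depended on which library was left out. Each such fit leaves a single library in 1 genotype, so its counts of calls are not given. Without Shp2f/f replicate 1 or without Shp2f/f replicate 2, edgeR's calls among the 38 genes were lost, as were nearly all calls over the whole table. DESeq2, which made more false calls than edgeR on simulated data, kept some of them. Without either of the Shp2f/fLysMcre libraries, edgeR called more of the 38 genes than in the full fit, and also more genes over the whole table. The fitted values moved little, with a median over the 38 genes of 1.06 to 1.26 and 36 or 37 of them above 0 in each case. With the replicate number as a block, 36 of the 38 were called higher, and 1870 of all genes higher and 804 lower.

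Some other gene lists moved with the erythroid genes in MDSC, where 3.76% of all genes tested were called higher and 0.52% lower. Of 31 further erythroid genes, 27 were tested and 11 were called higher and none lower, with a median of 0.82, and the largest change among called genes was that of the tropomodulin gene Tmod1 (1.82 ± 0.24). Tmod1 was 1.02 and 0.983 CPM in Shp2f/f and 3.41 and 3.61 CPM in Shp2f/fLysMcre. Proliferation genes were called higher in 17 of 20 cases, with a summed level of 1337 to 1390 CPM in Shp2f/f and 2627 to 2817 CPM in Shp2f/fLysMcre, led by Rrm2 (1.35 ± 0.12) and Cdk1 (1.25 ± 0.11). Neutrophil markers were called higher in 6 of 11 cases, led by the granule genes Ngp (2.57 ± 0.20) and Ltf (2.49 ± 0.22), with sums of 9952 to 10296 and 28003 to 31851 CPM. Mast cell and basophil markers summed to 84.1 to 102 and 174 to 184 CPM, with 3 of 7 tested genes called higher, led by Ms4a2 (1.55 ± 0.24) and Prss34 (1.43 ± 0.18), and with the tryptase genes Tpsab1 and Tpsb2 at 0 counts in every MDSC library. Megakaryocyte and platelet markers summed to 42.6 to 46.9 and 50.5 to 63.9 CPM, with 1 of 13 called higher (Itgb3, 0.97 ± 0.16). Only 5 of these 13 had a fitted value above 0, with a median of -0.17, so the sum did not follow most of them. Stem and progenitor markers summed to 89.7 to 92.2 and 98.7 to 99.3 CPM, with 2 of 8 called higher (Erg and Hlf). Red pulp macrophage markers summed to 98.2 to 123 and 138 to 240 CPM with none of 5 called. B cell markers summed to 27.5 to 36.6 and 17.4 to 17.6 CPM, with 2 of 5 called lower, T cell markers to 6.10 to 6.52 and 7.58 to 12.8 CPM, and macrophage markers to 2544 to 2634 and 2007 to 2120 CPM, with none called of 5 and 9. Fibroblast markers were at 6.85 to 25.2 CPM in Shp2f/f and at 11.4 and 491 CPM in Shp2f/fLysMcre replicates 1 and 2, so that replicate 2 stood apart. The part of these cell types in the erythroid result was not tested. Iron and heme handling genes outside the erythroid list showed little change, with 2 of 14 called higher and a median of 0.03, namely the iron exporter gene Slc40a1 (1.03 ± 0.11) and the heme-exporting transporter gene Abcg2 (0.88 ± 0.12).

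In TAM, the same question was asked of cells sorted from the tumor. Here 22 of the 38 genes passed the filter on low counts, which keeps a gene that is high in either genotype, and 16 did not. Epb42, Rhag, Car1 and Kel had 0 counts in all 6 libraries, which allows a total of up to 3 counts over the 3 libraries of a genotype, and Gata1 and Slc4a1 had a total of 1 count each, in a Shp2f/fLysMcre library. The other 10 genes under the filter were Epor, Klf1, Rhd, Hemgn, Trim10, Add2, Dmtn, Tspo2, Cldn13 and Icam4, with at most 17 counts in any TAM library. Of the 22 genes tested, 7 were called higher and 6 lower, while 23.9% of the 14446 genes tested were called higher and 26.3% lower. The median log2 fold change of the 22 genes was 0.06, against -0.01 over all genes tested, so these shares are close to the background. The genotypes did not overlap for 16 of the 22, against 56.8% of all genes tested.

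The largest decrease was that of Tfrc, which was 384, 431 and 407 CPM in Shp2f/f and 179, 183 and 183 CPM in Shp2f/fLysMcre. All Shp2f/fLysMcre libraries were lower, by a log2 fold change of -1.21 ± 0.04 (adjusted p = 8.26e-09). Car2 was 39.3, 42.1 and 40.3 CPM in Shp2f/f and 21.4, 19.4 and 19.9 CPM in Shp2f/fLysMcre, again without overlap (-1.05 ± 0.05, adjusted p = 6.27e-08). Gfi1b was 1.09, 1.5 and 1.42 CPM in Shp2f/f and 0.817, 0.874 and 0.511 CPM in Shp2f/fLysMcre (-0.90 ± 0.26, adjusted p = 0.0125). Tal1 (-0.41) and Zfpm1 (-0.18) did not pass, with adjusted p-values of 0.0524 and 0.265. Among the early genes tested, Ermap alone was higher, at 0.631 to 0.708 CPM in Shp2f/f and 0.948 to 1.24 CPM in Shp2f/fLysMcre (0.66 ± 0.24, adjusted p = 0.0364). That call was lost in DESeq2 (adjusted p = 0.128) and with scaling by total counts (adjusted p = 0.0657), and without any TAM library other than Shp2f/fLysMcre replicate 1 (adjusted p between 0.0617 and 0.103). The call of Gfi1b was lost without Shp2f/f replicate 2 (adjusted p = 0.0509).

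The heme pathway was split in TAM. Alad and Cpox were called lower, by -0.40 ± 0.06 (adjusted p = 0.000335) and -0.32 ± 0.05 (adjusted p = 0.000501), and Ppox was called higher, by 0.32 ± 0.05 (adjusted p = 0.000455). Alad was 12.9, 13.4 and 13.9 CPM in Shp2f/f and 10.6, 10.9 and 9.89 CPM in Shp2f/fLysMcre. Ppox was 34.2, 32.0 and 30.3 CPM in Shp2f/f and 40.4, 42.6 and 40.9 CPM in Shp2f/fLysMcre. The genotypes did not overlap for either gene, and the differences were small in size. Urod was called lower (-0.20 ± 0.06, adjusted p = 0.0130) although its genotypes overlapped, and Uros (-0.15), Fech (-0.03) and Alas2 (0.76) did not pass. Slc25a37 was called higher by 0.14 ± 0.05 (adjusted p = 0.0365), which was lost with scaling by total counts (0.05, adjusted p = 0.475). The calls of Urod and Slc25a37 were also lost without some single TAM libraries, Urod without Shp2f/f replicate 3 or Shp2f/fLysMcre replicate 2 (adjusted p = 0.0651 and 0.0550) and Slc25a37 without Shp2f/f replicate 2, Shp2f/f replicate 3 or Shp2f/fLysMcre replicate 2 (adjusted p between 0.0762 and 0.168).

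Globin transcripts were scarce in TAM and were higher in Shp2f/fLysMcre. Hbb-bs was 3.42, 4.89 and 4.06 CPM in Shp2f/f, from 116, 186 and 149 counts, and 7.48, 5.73 and 7.56 CPM in Shp2f/fLysMcre, from 229, 190 and 207 counts. The genotypes did not overlap (log2 fold change 0.70 ± 0.15, adjusted p = 0.00230). Hbb-bt was 0.245 to 0.420 CPM in Shp2f/f and 0.543 to 1.24 CPM in Shp2f/fLysMcre (1.40 ± 0.36, adjusted p = 0.00765), and Hba-a1 was 0.708 to 0.762 CPM and 0.965 to 2.08 CPM (0.96 ± 0.30, adjusted p = 0.0187). Hbb-bt and Hba-a1 rest on 9 to 57 counts per library, and the call of Hba-a1 was lost without Shp2f/f replicate 1, Shp2f/f replicate 2 or Shp2f/fLysMcre replicate 3 (adjusted p = 0.0558, 0.0529 and 0.0774). Hba-a2 did not pass (0.78 ± 0.53, adjusted p = 0.245). The 4 globins together took 0.000469% (95% Wilson interval 0.000401 to 0.000549), 0.000628% (0.000553 to 0.000713) and 0.000551% (0.000479 to 0.000633) of the counts in Shp2f/f. In Shp2f/fLysMcre they took 0.000957% (0.000858 to 0.00107), 0.000670% (0.000592 to 0.000760) and 0.00107% (0.000958 to 0.0012), so that the interval of Shp2f/fLysMcre replicate 2 overlapped those of Shp2f/f replicates 2 and 3. In MDSC the share was 0.0168% and 0.0192% in Shp2f/f and 0.0291% and 0.0467% in Shp2f/fLysMcre. These intervals cover counting error only.

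By stage, 3 of the 6 early genes tested in TAM were called lower and 1 higher, with a median of -0.65. Of the 9 late genes tested, 4 were called higher and none lower, with a median of 0.70. Over all genes tested in TAM, 23.9% were called higher and 26.3% lower, so counts from 6 and 9 genes say little about a stage. The late median was set by the globins, and without them it was 0.14. The early median was set by Tfrc and Car2, and it was -0.30 for the list without Tfrc, Car2 and Icam4. The summed late genes were 89.9 to 93.3 CPM in Shp2f/f and 88.6 to 93.8 CPM in Shp2f/fLysMcre, with overlapping genotypes. Fech and Slc25a37 made up most of this late sum, and Tfrc and Car2 most of the early sum. Without the genes set aside as broadly used, the late sum was 9.36 to 10.6 CPM in Shp2f/f and 10.5 to 15.2 CPM in Shp2f/fLysMcre. The early sum without them was 7.69 to 9.12 CPM in Shp2f/f and 6.76 to 6.99 CPM in Shp2f/fLysMcre. The 7 tested genes of neither list had 2 called higher (Ppox and Mfsd2b) and 3 called lower, with a median of -0.15. Mfsd2b was at 0.315 to 0.413 CPM in Shp2f/f and 0.573 to 0.876 CPM in Shp2f/fLysMcre (0.98 ± 0.30, adjusted p = 0.0182), and its call was lost in DESeq2 (adjusted p = 0.0748) and without Shp2f/f replicate 2, Shp2f/fLysMcre replicate 1 or Shp2f/fLysMcre replicate 3 (adjusted p between 0.0595 and 0.0742).

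**Figure D3:**
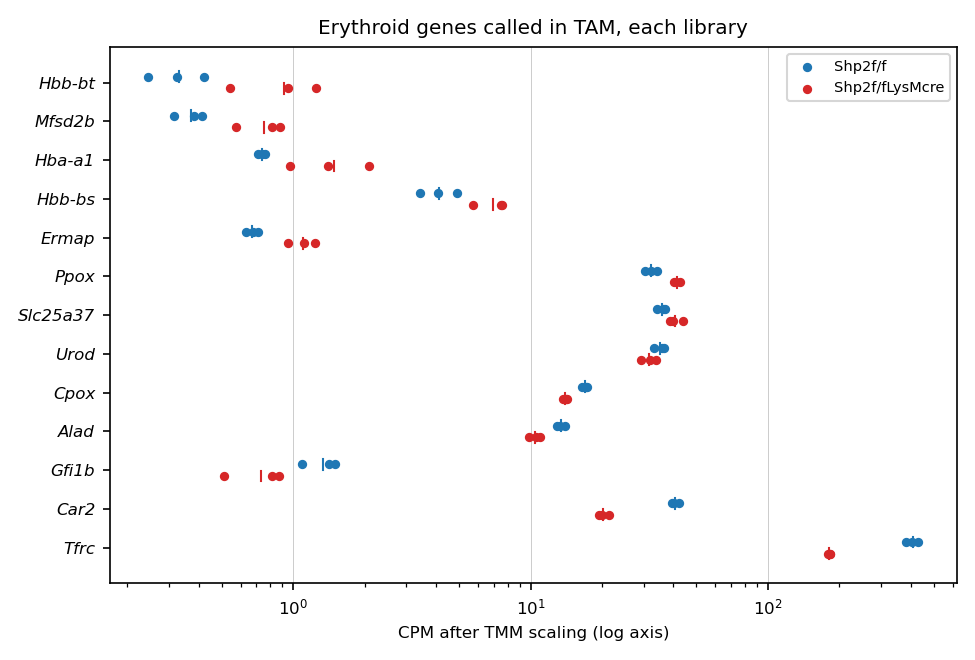
Levels of the 13 erythroid genes called in TAM, in CPM after TMM scaling on a log axis, with a point for each of the 3 libraries of a genotype and a short line at the mean. Tfrc and Car2 lie far above the globin genes and are lower in Shp2f/fLysMcre, while Hbb-bs, Hbb-bt and Hba-a1 are higher there at 7.56 CPM or less.

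Several lists changed in TAM beside the erythroid genes. Their calls are to be read against the 23.9% of all genes tested that were called higher and the 26.3% called lower. Proliferation genes were called lower in 20 of 20 cases, with a median of -0.79 and sums of 1901 to 1920 CPM in Shp2f/f and 1058 to 1121 CPM in Shp2f/fLysMcre, led by Bub1 (-0.99 ± 0.04) and Mki67 (-0.95 ± 0.04). Iron and heme handling genes were called higher in 9 of 14 cases and lower in 1. The iron exporter gene Slc40a1 was 10.3, 11.8 and 11.2 CPM in Shp2f/f and 36.1, 33.8 and 34.4 CPM in Shp2f/fLysMcre (1.61 ± 0.06, adjusted p = 8.26e-09). The heme oxygenase gene Hmox1, which breaks down heme taken up with red cells, was 345, 344 and 336 CPM in Shp2f/f and 987, 910 and 839 CPM in Shp2f/fLysMcre (1.37 ± 0.05, adjusted p = 8.26e-09). Both were separated by genotype without overlap. Red pulp macrophage markers were called higher in 4 of 4 tested genes, with sums of 224 to 229 and 495 to 504 CPM, led by Spic (1.64 ± 0.06), a factor for iron-recycling macrophages, and the hemoglobin scavenger receptor gene Cd163 (1.33 ± 0.04). Platelet and megakaryocyte markers summed to 976 to 1012 and 1416 to 1526 CPM, with 3 of 8 tested called higher and 1 lower, led by Treml1 (2.27 ± 0.26) and Ppbp (1.07 ± 0.04). Neutrophil markers summed to 4365 to 4592 and 2294 to 2350 CPM. Of these markers, 5 of 10 were called higher and 1 lower, with a median of 0.34, so the sum did not follow most of them. Macrophage markers summed to 9601 to 9888 and 13063 to 13520 CPM with 9 of 9 called higher. Mast cell and basophil markers had 1 of 6 called higher, B cell markers 1 of 3 higher, T cell markers 5 of 5 lower, stem and progenitor markers 3 of 7 lower, and fibroblast markers 1 higher and 1 lower of 5. Of 21 tested further erythroid genes, 7 were called higher and 4 lower with a median of -0.02, led by Nfe2 (0.81 ± 0.19) and Blvrb (0.56 ± 0.05). The part of these lists in the change of the globins or of Tfrc was not tested.

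The difference between the genotype effects of the cell types was then tested directly, as the log2 effect in TAM minus that in MDSC over all 10 libraries. No term was fitted for mice shared by the cell types. Of the 22 erythroid genes that passed the filter in both cell types, 15 were called lower in TAM relative to MDSC and none higher. Of the 13147 genes that passed in both, 1761 were called lower and 2007 higher. Over all 16581 genes tested, 12.7% were called lower and 12.2% higher. At an unadjusted p under 0.05 there were also 15 of the 22, and 6220 of all genes tested. The median difference was -0.66, against 0.04 over the 13147 genes that passed in both. All 6 early genes tested were called, with a median of -1.71, and 4 of 9 late genes were, with a median of -0.36. The largest differences were those of Car2 (-2.36 ± 0.11, adjusted p = 6.50e-06), Gfi1b (-2.16 ± 0.27, adjusted p = 0.000440) and Tfrc (-2.11 ± 0.13, adjusted p = 1.00e-05). These 3 genes were called in opposite directions in the cell types. Of the 4 globins none was called, and their median difference was -0.02 with values from -0.36 to 0.20. Tests with limma voom and weights per cell type, chosen after seeing the data because the spread of the cell types differed (biological coefficient of variation 0.189 in MDSC and 0.0595 in TAM), called 14 of the 22 lower and none higher, with Ermap lost (adjusted p = 0.0790). On simulated data with the spread of these libraries, the share of false calls in edgeR's interaction test was several times its threshold, so that its adjusted p-values are too small, and voom made fewer false calls but also exceeded the threshold.

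**Figure D4:**
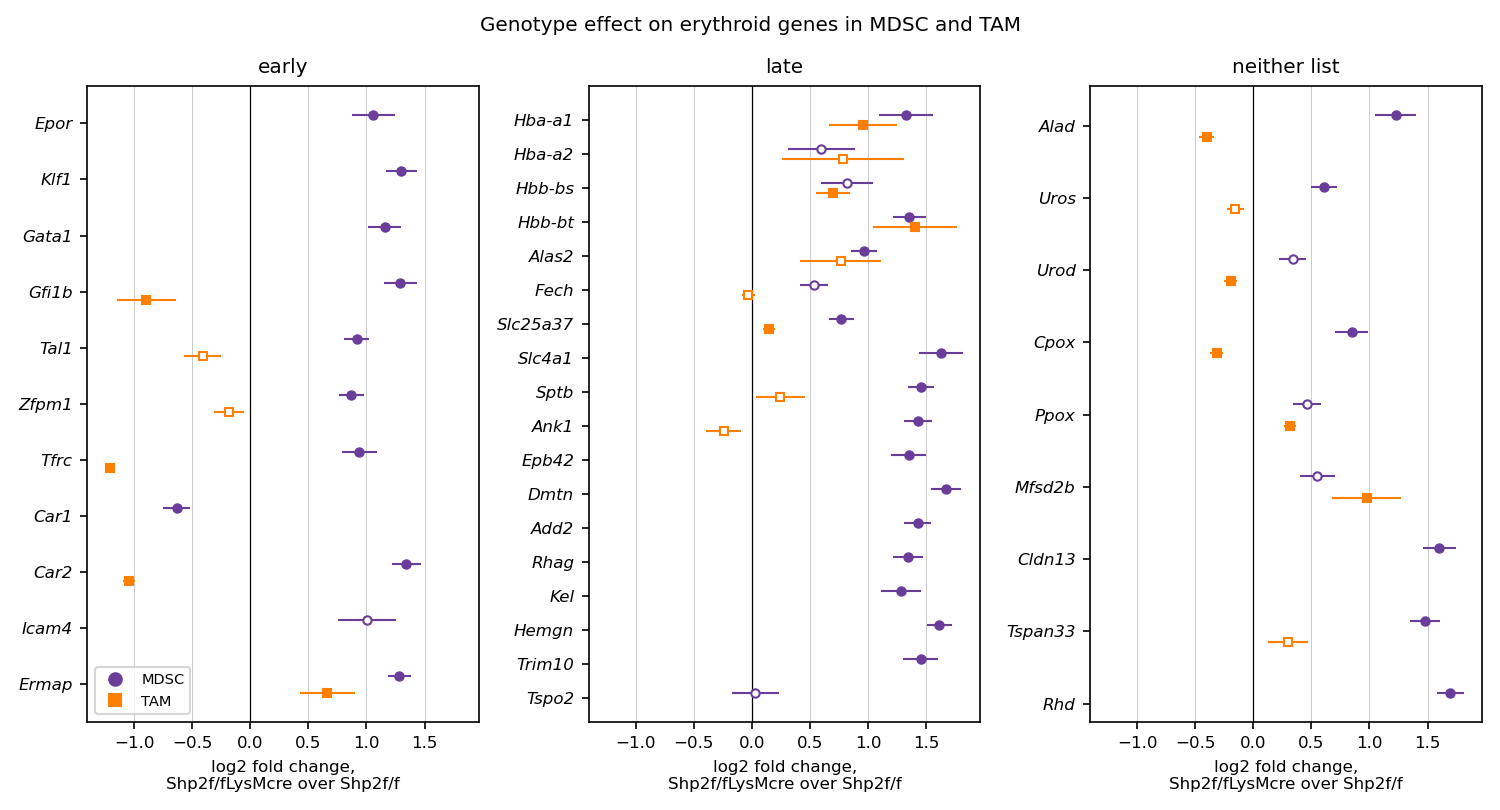
Log2 fold changes of Shp2f/fLysMcre over Shp2f/f with their SE for each tested erythroid gene, purple circles for MDSC and orange squares for TAM, filled where the gene was called and open where it was not. Most MDSC values lie between 0.5 and 1.7, Car1 lies below 0, and the TAM values lie on both sides of 0 with Tfrc and Car2 lowest.

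To place these effects, the levels of the cell types were compared in Shp2f/f mice. All genes were called, 37 lower in TAM and only Tfrc higher, while 38.8% of the 15659 genes tested were called lower and 40% higher. The cell types did not overlap for 38 of 38 genes, and this held for 85.8% of all genes tested. False calls on simulated data exceeded the threshold several times in this comparison too, both in edgeR and in voom, which made the same number of calls among the 38 genes. The median log2 difference of the 38 genes was -5.41, against 0.01 over all genes. Against a floor of 3 counts over the TAM group, MDSC were at least 2325-fold higher for Car1, at least 1937-fold for Slc4a1, at least 540-fold for Gata1, at least 473-fold for Rhag, at least 448-fold for Kel and at least 245-fold for Epb42. Klf1 was 210.5 times as high in MDSC (95% counting interval 111 to 460.3) and Hbb-bs 24.2 times (22.0 to 26.6). The genes shared with other cells differed far less, with Fech at 1.23 times (1.2 to 1.27) and Urod at 1.73 times (1.67 to 1.78). Tfrc was at 0.205 times its TAM level (0.203 to 0.207).

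Per length of gene, as CPM divided by the exon length in kilobases (RPKM), the order of the genes differed between the cell types. In MDSC of Shp2f/f mice Hbb-bs was first at 131 ± 12.4 RPKM (SD, n = 2), followed by Car1 (51.4 ± 4.57), Car2 (50.3 ± 2.69), Hba-a1 (44.5 ± 4.88) and Hbb-bt (38.3 ± 2.72). The ranges of mean ± SD of Car1, Car2 and Hba-a1 overlapped, and their order was not tested. Dmtn was last at 0.714 ± 0.0095 RPKM. In MDSC of Shp2f/fLysMcre mice Hbb-bs remained first at 228 ± 66.7 RPKM, Car2 followed at 126 ± 9.55 and Car1 came sixth at 32.7 ± 0.393, next to Slc4a1 at 33.4 ± 7.48. In TAM of Shp2f/f mice Tfrc was first at 65.8 ± 3.84 RPKM (SD, n = 3), then Car2 (16.7 ± 0.581) and Urod (13.6 ± 0.700), and Hbb-bs was at 5.37 ± 0.959.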

How the data were processed

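Poly(A) RNA of MDSC and TAM was sequenced as 42-nt paired-end reads from stranded libraries. Per the labels and the study's methods, the authors trimmed reads with cutadapt 2.5, aligned them to GRCm38 with STAR 2.7.3a and counted reads per Ensembl gene using featureCounts (Subread 1.6.2). They deposited raw counts per gene, which every test used, and a normalized signal made with DESeq2 1.24.0 size factors within each cell type, which was not used. Strand and multimapping settings are not given in the sources used here. GENCODE symbols matched 55240 of 55421 identifiers.

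The test was that of edgeR 4.0.16 under R 4.3.3 (filterByExpr with minimum count 10, TMM, quasi-likelihood F test, Benjamini-Hochberg adjustment), by genotype within each cell type, as an interaction over 10 samples and between cell types in Shp2f/f. Levels used TMM factors of all 10 samples, and sums used CPM of the total count. Changes are log2 fold changes with SE. edgeR, DESeq2 and voom were tested on simulated data with a spread set for each cell type. The share of false calls was under the threshold for edgeR in TAM, above it for edgeR in MDSC and several times it in the interaction and between cell types, and it was higher in DESeq2 than in edgeR in every comparison and lower in voom in the 2 comparisons where it was used. Adjusted edgeR p-values outside the TAM genotype comparison are therefore too small. Alternatives were DESeq2 1.42.0, other scalings and filters, a replicate block, a joint fit, left-out replicates and, added after seeing the data, limma 3.58.1 voom. Members, stage lists and other lists were chosen with earlier results of these data known, so no list was tested. All members were named, and of each other list the 2 called genes with the largest change and a mean of at least 1 CPM. A gene selected by this rule is not reported here. Where samples of a group do not come from separate mice, p-values measure only the spread between these samples, which may be technical. Chi-square per degree of freedom between replicates was 4.46 to 58.1, far above the value near 1 that a repeated library would give.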

Additional observations from a re-analysis of the deposited data

Results flagged for a closer look

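The genotype effect of 15 erythroid genes differed between TAM and MDSC in the interaction test (edgeR quasi-likelihood, TAM effect minus MDSC effect, log2). Early genes were Car2 (-2.36), Gfi1b (-2.16), Tfrc (-2.11), Tal1 (-1.30), Zfpm1 (-1.03) and Ermap (-0.59). Late genes were Ank1 (-1.64), Sptb (-1.18), Slc25a37 (-0.60) and Fech (-0.54). Genes of neither list were Alad (-1.60), Tspan33 (-1.15), Cpox (-1.13), Uros (-0.73) and Urod (-0.51). The adjusted p-values were between 6.50e-06 (Car2) and 0.0409 (Ermap), and they are too small, because false calls in this test exceeded its threshold on simulated data. In MDSC all 15 genes had fitted values above 0. Of the 15, Car2, Gfi1b, Tfrc, Alad and Cpox were called higher in MDSC and lower in TAM.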

How the results depend on the processing

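In MDSC, scaling by total counts left 0 genes called lower, and with no filter on low counts 16 were called higher and 0 lower. Calls of edgeR in MDSC were lost without either of the Shp2f/f libraries. Over left-out MDSC libraries the early median ranged from 1.03 to 1.22 and the late median from 1.30 to 1.42. Over all genes, calls higher and lower were 968 and 288 in DESeq2, 122 and 8 with no filter, and 1739 and 927 in a joint fit of 10 samples. In TAM, leaving the globins out left 4 genes called higher and a late median of 0.14, and the filter of 1 CPM gave a late median of 0.19. With a joint fit the late median was 0.24 and the early -0.15, and 2229 of all genes were called lower. With no filter the early median was -0.18, and without Tfrc, Car2 and Icam4 it was -0.30. Over left-out TAM libraries 3 to 6 genes were called higher (3 without TAM Shp2f/f replicate 2, 4 without TAM Shp2f/fLysMcre replicate 3) and 5 to 7 lower, with early medians of -0.77 to -0.52 and late medians of 0.27 to 0.83. Scaling by total counts moved the median of all genes in TAM to -0.11 and the split of calls to 2342 higher and 5227 lower, from 3452 and 3805. In the interaction, scaling by total counts gave an early median of -1.88, a median of all genes of -0.18 and 1234 of all genes higher, voom gave 1281 lower, and the lists without globins or without Tfrc, Car2 and Icam4 had medians of -0.60 (late) and -1.16 (early). Over left-out libraries 12 to 15 genes were called lower and 0 higher, with early medians of -1.77 to -1.59 and late medians of -0.53 to -0.11. Without Hba-a1 and Hba-a2 the globin share was 0.0131% in MDSC and 0.000451% in TAM of Shp2f/f mice. Signs turned only in genes that were not called. These were Fech in TAM (0.0066 in the joint fit) and Hbb-bt in the interaction (-0.11 with total counts, -0.0034 in voom). With a library left out, Tspo2 in MDSC was between -0.16 and 0.17, Fech in TAM between -0.075 and 0.0197, and in the interaction Hba-a1 between -0.68 and 0.0018, Hba-a2 between -0.30 and 0.64, Hbb-bs between -0.39 and 0.25, Hbb-bt between -0.23 and 0.36, Alas2 between -0.55 and 0.0502 and Ppox between -0.23 and 0.0145. The cause of these changes was not tested.

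Deviations of same-numbered samples had correlations of 0.173 in MDSC and -0.0894 to 0.0732 in TAM. In MDSC the deviations of the 2 libraries of a genotype mirror each other, so that correlation is a single value. Whether same-numbered samples share a mouse or a batch cannot be told from these values. Under the replicate block the calls were 36 higher and 1 lower in MDSC, 5 higher and 6 lower in TAM, 15 lower and 0 higher in the interaction, and 37 lower and 1 higher between cell types. The depth of the libraries limits the globins of TAM, at 9 to 57 counts for Hbb-bt and Hba-a1, and each MDSC genotype has only 2 libraries.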
